A study of Mus musculus with 6 samples.

Results

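RiboMeth-seq measures 2'-O-methylation of rRNA riboses, and the values here are those of the 22 listed methylation sites in the 5' domain of mouse 18S rRNA. They were chosen by position alone, as the listed 18S sites with a human position of 650 or less, and are 22 of the 40 listed sites of 18S rRNA. The series lists a further 66 sites of 28S and 2 of the short rRNA that pairs with it. Whole brains were taken from adult mice without Snord115 (Snord115-KO, n = 3) and from embryos at E16.5 of a line without Snord115 and Snord116 (n = 3). Both groups thus lack Snord115, a brain snoRNA family of the imprinted Prader-Willi region that is expressed from the paternal allele. The Snord115-KO mice are heterozygotes with a paternally inherited CRISPR/Cas9 deletion of the whole gene array, while the double-KO line is not described further in the methods. WT brains are not among the samples, so that WT values of both ages are the means and SDs of the authors' deposited table. Age and genotype change together between the groups of brains and cannot be told apart in that comparison. Nothing in the labels says which brains share a litter. The p-values set group differences against the spread between these brains, estimated partly across listed sites.

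Box C/D snoRNAs (Snord genes) guide the methyltransferase fibrillarin to rRNA. An antisense stretch of the snoRNA pairs with the rRNA, and the nucleotide that faces the fifth base upstream of box D or D' (CUGA) receives the methyl group. The 5' domain of 18S rRNA folds early during ribosome assembly and forms most of the body of the small subunit. A methyl group on the 2' oxygen blocks alkaline cleavage of the next bond, so that a methylated nucleotide has few read ends compared with its neighbours. The methylated fraction is 1 minus the read ends at the site over those expected from 6 neighbours on each side, and runs from 0 (no protection) to 1 (full protection).

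The sites on which the results below turn are shown within 21 bases of mouse 18S rRNA as deposited, with the site in capitals.
SSU-A576: uccacuuuaaAuccuuuaacg
SSU-U354: uucgaacgucUgcccuaucaa
SSU-G436: auuccggagaGggagccugag
SSU-U172: cuagagcuaaUacaugccgac
SSU-C174: agagcuaauaCaugccgacgg
SSU-G509: gacccggggaGguagugacga
SSU-A512: ccggggagguAgugacgaaaa
Sites are named by their human position. Mouse and human positions are the same up to SSU-C174, and from SSU-U354 on the mouse position is higher by 2, so that SSU-A576 is position 578 of mouse 18S rRNA, SSU-U354 is 356 and SSU-G436 is 438. Of the 22 sites 9 are A, 6 U, 4 G and 3 C, and 10 lie within 6 bases of another listed site.

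For 20 of the 22 sites, an annotated mouse snoRNA gene (GENCODE vM21 or RefSeq, GRCm38.p6) held at least 9 consecutive Watson-Crick pairs placed as a guide requires. The longest pairing of each site was 10 to 16 bases. Rabggtb, which encodes a subunit of a protein prenyltransferase, held snoRNAs facing 3 of the sites, and Nop56, Nop58 and the ribosomal protein gene Rpl23a each held snoRNAs facing 2. The guide stretches for the sites above are given with the base that faces the site and the box in capitals, to be read against the rRNA windows.
Snord93: guuaaaggaUuuacCUGA
Snord90: auagggcAgauuCUGA
Snord45b: ggcauguAuuagCUGA
Snord45c: ggcauGuauuCUGA
Snord11: gucacuacCucuuCUGA
Snord70: uucgucacUaccaCUGA
Snord93 (chr5:23852210-23852280, plus strand) faces SSU-A576 and lies within the annotated gene 2700038G22Rik. A copy annotated as Mir3096 in AI506816 on the same chromosome carries the same 13 paired bases. Snord90 (chr2:37400047-37400157, minus strand, in Rc3h2) faces SSU-U354. Snord45b and Snord45c, both in Rabggtb on chromosome 3, face SSU-U172 and SSU-C174, and Snord11 and Snord70, both in Nop58 on chromosome 1, face SSU-G509 and SSU-A512. No annotated gene met the rule for SSU-G436 or SSU-A590. Of 208 GENCODE snoRNA genes within Snhg14 (chr7:59307924-59975759), the host RNA of the Snord116 and Snord115 arrays, none was among the 35 pairings found. A match of letters is a description and does not show that a snoRNA is used.

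Total read ends per brain ranged from 9621368 to 20064865, of which 3535124 to 6958547 lay in 18S rRNA. At the 22 sites the expected read ends ranged from 629 to 14300 in the adult brains and from 391 to 6768 in the E16.5 brains, with medians of 2065 and 2291. The reads carry no molecular identifiers, so errors are SDs between brains and not counting intervals.

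Most of the 22 listed sites of the 5' domain were highly methylated in both groups. A mean fraction of at least 0.75 was reached by 21 of the 22 sites in the adult Snord115-KO brains and by 20 in the E16.5 Snord115-Snord116-KO brains. Most sites elsewhere in the series were as high, with 104 of all listed sites reaching 0.75 in the adult and 95 at E16.5. At 0.90 or more the counts were 18 of the 22 sites in the adult and 13 in the E16.5 brains, beside 92 and 66 of all listed sites. The median over the 22 sites was 0.964 in the adult and 0.919 in the E16.5 brains, beside 0.963 and 0.928 over all listed sites. In the authors' WT means the same medians were 0.964 for the adult and 0.932 for E16.5. The exceptions in the KO means were SSU-A576 in the adult, and SSU-G436 and SSU-C174 at E16.5. SSU-C174 lay just under the limit, at 0.749, where the authors' corrected KO mean was 0.866. The range between sites was wide, with means of 0.510 (SSU-A576) to 0.990 (SSU-A590) in the adult and of 0.337 (SSU-G436) to 0.979 (SSU-G601) at E16.5. Spread between brains was larger at E16.5, where the median SD of the 22 sites was 0.0304, against 0.0123 in the adult.

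The comparison of adult with E16.5 brains asked which sites are protected to a different degree in the 2 groups, and 11 of the 22 sites passed the edgeR quasi-likelihood test (adjusted p under 0.05 over all listed sites). Of all listed sites 26.9% passed, 4 of the 18 other 18S sites and 13 of the 66 in 28S among them, and no test compared these shares. At 10 of the 11 the fraction was higher in the adult (25.9% of all listed sites passed in that direction), namely SSU-A27, SSU-A99, SSU-U121, SSU-A159, SSU-U172, SSU-U354, SSU-G436, SSU-G509, SSU-A512 and SSU-A590. SSU-A576 was lower in the adult, and was alone in this among the 29 called sites of the series. The log2 changes below compare the unprotected share (read ends over expected) of the adult with that of E16.5, and a negative one goes with a higher methylated fraction in the adult. The median log2 change was -1.28 over the 22 sites and -0.87 over all listed sites, and it was below 0 at 20 of the 22, beside 88% of all listed sites. In 13 of the 22 sites the brains of the groups did not overlap (42.6% of all listed sites), the 11 called sites, SSU-C174 and SSU-U627. The authors' WT means, which come from other brains, had the same sign of the adult minus E16.5 difference at all 11 called sites and at 19 of the 22, beside 81.5% of all listed sites. These calls depend on single libraries and on the scaling. Without adult brain 2 only SSU-A576 and SSU-U354 passed, and the same pair passed when TMM factors were added, which moved the median log2 change of all listed sites by 0.74 to -0.12. The count was 7 without adult brain 1, 6 without E16.5 brain 2 and 7 without E16.5 brain 3. Of the 6 fits that each left out 1 brain, all called SSU-A576 and SSU-U354, 5 called SSU-A99, SSU-G436 and SSU-A512, 4 called SSU-G509, 2 called SSU-U121 and SSU-U172, and 1 called SSU-A27, SSU-A159 and SSU-A590.

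SSU-A576, the site facing Snord93, was protected far less in the adult than at E16.5. The adult brains had fractions of 0.5002, 0.567 and 0.464, from 935, 1488 and 964 read ends where 1871, 3435 and 1797 were expected. The E16.5 brains had 0.898, 0.925 and 0.925, from 170, 133 and 202 read ends where 1669, 1764 and 2704 were expected. No adult brain came near an E16.5 brain, and the means were 0.510 ± 0.0523 in the adult and 0.916 ± 0.0155 at E16.5 (SD, n = 3 each). The log2 change was 2.54 ± 0.36 (SE, adjusted p = 0.00446). By size the difference between the means ranked 2 among all listed sites. It was seen in both kinds of read end, with an adult mean of 0.526 and an E16.5 mean of 0.928 on 5' ends alone, and of 0.50 and 0.909 on 3' ends alone. The fit on 5' ends alone gave 2.73 ± 0.24 (adjusted p = 2.59e-06) and that on 3' ends alone 2.46 ± 0.60 (adjusted p = 0.0534). Among the WT means, that of the adult was 0.722 (authors' SD, 0.0809) and that of E16.5 was 0.907 (authors' SD, 0.0327), so that the WT difference between ages, -0.186, had the same sign.

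SSU-U354, the site facing Snord90, showed the reverse order, with a narrow spread in both groups when 5' and 3' ends were summed. Fractions were 0.970, 0.984 and 0.966 in the adult brains and 0.783, 0.787 and 0.794 in the E16.5 brains. The adult brains had 77, 34 and 52 read ends of 2525, 2186 and 1512 expected, and the E16.5 brains 274, 494 and 651 of 1264, 2321 and 3158. The means, 0.973 ± 0.00995 in the adult and 0.788 ± 0.00537 at E16.5, differed by far more than the spread between brains (log2 change -2.98 ± 0.43, adjusted p = 0.00446). On 5' ends alone the E16.5 brains had 0.871, 0.786 and 0.819 (SD 0.0429). On 3' ends alone they had 0.702, 0.789 and 0.761 (SD 0.0445). Brain 1 was thus highest on 5' ends and lowest on 3' ends, and brain 2 the reverse. The groups overlapped on neither kind of end. The fit on 5' ends alone passed (adjusted p = 2.05e-05), and that on 3' ends alone did not (adjusted p = 0.0552). WT means of 0.954 in adult brains and 0.774 at E16.5 gave a difference of 0.180, which ranked 5 among all listed sites.

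SSU-G436 had the largest difference between group means of all listed sites, 0.536. Its fractions were close together in the adult brains, at 0.864, 0.882 and 0.875. In the E16.5 brains they were 0.563, 0.136 and 0.313, all below the adult ones but far apart from each other. The counts behind them were 202, 183 and 178 read ends of 1482, 1557 and 1422 expected in the adult, and 496, 1385 and 1726 of 1135, 1602 and 2512 at E16.5. Group means were 0.874 ± 0.00944 and 0.337 ± 0.215 in the same order, with a log2 change of -2.39 ± 0.43 (adjusted p = 0.00968, or 0.0543 without adult brain 2). It was the only site of the 22 to pass on the 5' ends alone (adjusted p = 2.84e-05) and also on the 3' ends alone (adjusted p = 0.0233). In WT brains the mean was 0.762 (authors' SD, 0.0738) in the adult and 0.319 (authors' SD, 0.0877) at E16.5, and this difference, 0.442, again ranked 1.

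Around SSU-G509 and SSU-A512, which lie 3 bases apart and face snoRNAs of the same host gene, Nop58 (a core protein of box C/D particles), both sites were higher in the adult. SSU-G509 had 0.975, 0.980 and 0.967 in the adult brains and 0.855, 0.897 and 0.948 in the E16.5 brains. This rested on 16, 21 and 32 read ends of 629, 1060 and 962 expected in the adult, and at E16.5 on 198 of 1367, 103 5' plus 5 3' of 1049, and 215 of 4104. Its means were 0.974 ± 0.00676 in the adult and 0.90 ± 0.0463 at E16.5, giving a log2 change of -1.93 ± 0.44 (adjusted p = 0.0200). SSU-A512 had 0.978, 0.977 and 0.976 in the adult, from 19, 34 and 26 read ends of 871, 1476 and 1085. At E16.5 it had 0.955, 0.928 and 0.942, from 68, 84 and 202 of 1505, 1165 and 3476. Its means, 0.977 ± 0.00108 and 0.942 ± 0.0135 in the same order, gave a log2 change of -1.34 ± 0.27 (adjusted p = 0.0143). The groups overlapped at neither site. SSU-C517, which is 5 bases further on and faces Gm23650 in Nop56, had means of 0.955 in adult brains and 0.944 at E16.5 and did not pass (adjusted p = 0.493).

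The 4 sites from SSU-A159 to SSU-C174 lie close together, at most 7 bases from the next, and their guide pairings overlap on the rRNA. Those of SSU-U172 and SSU-C174 share 10 bases, so that the 2 snoRNAs pair with nearly the same stretch. SSU-A159 faces Snord45c and Gm24494, both in Rabggtb, and SSU-A166 faces Gm23212 in Gas5, a noncoding host of several snoRNAs. SSU-A159 was near full protection and still passed, with 0.987, 0.990 and 0.982 in the adult (26, 45 and 55 read ends of 2053, 4708 and 3110) and 0.974, 0.972 and 0.964 at E16.5 (24, 179 and 119 of 921, 6313 and 3282). Its means were 0.987 ± 0.00410 in the adult and 0.970 ± 0.00535 at E16.5, and its log2 change was -1.19 ± 0.32 (adjusted p = 0.0324). SSU-A166 had 0.978 in the adult and 0.975 at E16.5 and did not pass (adjusted p = 0.575). SSU-U172 differed more, with 0.947, 0.955 and 0.910 in the adult brains and 0.837, 0.743 and 0.792 in the E16.5 brains. There were 56, 95 and 172 read ends of 1049, 2088 and 1910 in the adult, against 145, 698 and 493 of 888, 2715 and 2372 at E16.5. The means were 0.937 ± 0.0238 and 0.791 ± 0.0469 (log2 change -1.73 ± 0.43, adjusted p = 0.0255). On 5' ends alone they lay further apart, at 0.926 in the adult and 0.536 at E16.5, and on 3' ends alone closer, at 0.947 and 0.924. Leaving listed sites out of the neighbours moved its mean by 0.0273 at E16.5, the largest such shift of the 22 sites.

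SSU-C174 had the widest spread of the cluster and did not pass (log2 change -2.17 ± 0.76, adjusted p = 0.0799). Its adult brains had 0.973, 0.948 and 0.912, from 28 of 1034, 35 5' plus 73 3' of 2076, and 194 of 2209 expected read ends. Its E16.5 brains had 0.905, 0.516 and 0.827, from 92, 1239 and 389 of 973, 2558 and 2250. In E16.5 brain 2, 1083 of the 1239 read ends were 3' ends. The means were 0.944 ± 0.0305 in the adult and 0.749 ± 0.206 at E16.5, against the authors' corrected E16.5 KO mean of 0.866. Scored on 5' ends alone the means were 0.970 ± 0.0101 in the adult and 0.877 ± 0.0117 at E16.5, and the site passed (adjusted p = 0.000552).

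Of the sites nearest the 5' end of the rRNA, SSU-A27, SSU-A99 and SSU-U121 were close to full protection in both groups and higher in the adult. SSU-A27, facing Gm24452 in Snhg1, had 0.986, 0.990 and 0.986 in the adult (54, 142 and 65 read ends of 3835, 14300 and 4724) and 0.980, 0.968 and 0.973 at E16.5 (25, 130 and 112 of 1242, 4102 and 4171). The means were 0.987 ± 0.00231 in the adult and 0.974 ± 0.00581 at E16.5, giving a log2 change of -1.07 ± 0.29 (adjusted p = 0.0324). SSU-A99, facing Snord57 in Nop56, had 0.969, 0.976 and 0.976 in the adult and 0.935, 0.946 and 0.922 at E16.5. The read ends were 74, 93 and 71 of 2404, 3935 and 2976 in the adult and 89, 111 and 236 of 1372, 2059 and 3044 at E16.5. Its means were 0.974 ± 0.00407 and 0.935 ± 0.0118 (log2 change -1.33 ± 0.28, adjusted p = 0.0143). SSU-U116 and SSU-U121, 5 bases apart, face Snord42a and Snord4a, which share the host gene Rpl23a. SSU-U121 passed, with 0.982, 0.988 and 0.973 in the adult (33, 27 and 75 read ends of 1806, 2257 and 2760) and 0.955, 0.931 and 0.941 at E16.5 (46, 271 and 219 of 1017, 3932 and 3710). Its means were 0.981 ± 0.00764 and 0.942 ± 0.0119 (log2 change -1.59 ± 0.37, adjusted p = 0.0200). SSU-U116 had a mean of 0.929 in adult brains and 0.885 at E16.5, with groups that overlapped (adjusted p = 0.549). The authors' corrected KO mean at E16.5 was 0.938, which puts the adult lower. Their WT means, 0.926 in the adult and 0.946 at E16.5, had that order too.

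The calls at SSU-A27, SSU-A99 and SSU-A159 were not made on 5' ends alone, where SSU-A27 averaged 0.988 in the adult and 0.983 at E16.5, SSU-A99 0.946 and 0.955, and SSU-A159 0.990 and 0.989. At SSU-A99 the adult brains had 18, 38 and 39 3' ends and the E16.5 brains 63, 102 and 191, and on these alone its mean was 0.986 in adult and 0.928 in E16.5 brains. On 5' ends alone its log2 change turned to 0.25 ± 0.37 (adjusted p = 0.596), while on 3' ends alone it was -2.33 ± 0.42 (adjusted p = 0.0233). On 3' ends alone SSU-A27 and SSU-A159 did not pass either (adjusted p = 0.0552 and 0.103). The other 8 calls were also made on 5' ends alone, where 13 of the 22 sites and 58.3% of all listed sites passed, among the 13 SSU-C174, SSU-U428, SSU-G601, SSU-U627 and SSU-G644, which had not passed on all read ends.

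SSU-A590, for which no guide pairing was found, had the highest adult mean of the 22 sites. The adult brains had 0.990, 0.992 and 0.988 (19, 29 and 27 read ends of 1921, 3442 and 2297), and the E16.5 brains 0.978, 0.951 and 0.981 (57, 148 and 94 of 2550, 3009 and 4913). The means, 0.990 ± 0.00167 in the adult and 0.970 ± 0.0165 at E16.5, gave a log2 change of -1.59 ± 0.44 (adjusted p = 0.0349). SSU-G601 averaged 0.985 in the adult and 0.979 at E16.5 (adjusted p = 0.286). SSU-U428, facing Snord68 in Rpl13, averaged 0.959 in the adult and 0.902 at E16.5 (adjusted p = 0.123). SSU-A484, facing Snord16a in Rpl4, averaged 0.955 in the adult and 0.922 at E16.5 (adjusted p = 0.493). SSU-U627, facing Snord65, averaged 0.964 in the adult and 0.862 at E16.5 without overlap between brains (adjusted p = 0.0979). In the fits without 1 brain its adjusted p was 0.0468 without adult brain 3 and from 0.101 to 0.25 without any other.

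SSU-C462 and SSU-A468, 6 bases apart, face Snord14 genes (in Rps13 and Hspa8) and Snord83b (in Rpl3). At SSU-C462 the adult brains had 0.931, 0.981 and 0.977, from 125, 33 and 25 read ends of 1819, 1763 and 1089. The E16.5 brains had 0.767, 0.972 and 0.829, from 380, 57 and 564 of 1632, 2051 and 3300. The means were 0.963 ± 0.0277 and 0.856 ± 0.105, and the groups overlapped (adjusted p = 0.136). WT means had the reverse order, 0.774 in the adult and 0.902 at E16.5, a difference of -0.127. Most read ends of this site were 3' ends, 124 of 125 in adult brain 1, 366 of 380 in E16.5 brain 1 and 557 of 564 in E16.5 brain 3. At SSU-A468 the adult brains had 0.970, 0.909 and 0.821 (29, 128 and 221 read ends of 976, 1408 and 1231) and the E16.5 brains 0.956, 0.875 and 0.947 (46, 220 and 128 of 1053, 1764 and 2426). Its means, 0.90 ± 0.0753 in the adult and 0.926 ± 0.0444 at E16.5, were closer than the spread between brains (adjusted p = 0.653).

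SSU-G644, facing Gm24016 in Rps20, had 1 adult library far from the other two. Its adult brains had 0.624, 0.987 and 0.968, from 1057, 55 and 131 read ends of 2813, 4304 and 4127, and 1027 of the 1057 in adult brain 1 were 3' ends. The E16.5 brains had 0.800, 0.894 and 0.880, from 487, 231 and 462 of 2438, 2185 and 3855. The means, 0.860 ± 0.204 in the adult and 0.858 ± 0.0507 at E16.5, were close (log2 change -0.02 ± 1.17, adjusted p = 0.988). With the authors' corrected adult KO mean, 0.975, the adult was higher by 0.117. On 5' ends alone the means were 0.963 ± 0.0107 in the adult and 0.859 ± 0.0283 at E16.5, and the site passed (adjusted p = 0.000615). It also passed without adult brain 1, with a log2 change of -2.67 (adjusted p = 0.0261).

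On 3' ends alone, the brain with the lowest fraction of its group was the same at all sites followed by C and at all those followed by A, but not at the other 13 sites. The 4 sites followed by C are shown with the site in capitals, so that the next letter is the C.
SSU-U116: caguuaugguUccuuuggucg
SSU-U428: aggguucgauUccggagaggg
SSU-C462: gcuaccacauCcaaggaaggc
SSU-G644: agcuccaauaGcguauauuaa
On 3' ends alone, all 4 had their lowest fraction of the group in adult brain 1 and in E16.5 brain 1. The medians of the 4 were 0.802 in adult brain 1, against 0.981 and 0.976 in the other two adult brains. They were 0.688 in E16.5 brain 1, against 0.973 and 0.889 in the other two. The 5 sites followed by A (SSU-U172, SSU-C174, SSU-A468, SSU-A484 and SSU-U627) had their lowest fraction on 3' ends in adult brain 3 and in E16.5 brain 2 at 5 of 5. Their medians were 0.978, 0.919 and 0.899 in adult brains 1, 2 and 3, and 0.963, 0.655 and 0.958 in E16.5 brains 1, 2 and 3. The 8 sites followed by G had their lowest fraction in adult brains 1, 2 and 3 at 2, 2 and 4 sites, and in E16.5 brains 1, 2 and 3 at 2, 3 and 3. Among the 5 followed by U these counts were 1, 0 and 4 in the adult and 2, 2 and 1 at E16.5. Over all listed sites, adult brain 1 was lowest at 21 and E16.5 brain 1 at 19 of the 21 followed by C, and adult brain 3 was lowest at 14 and E16.5 brain 2 at 16 of the 18 followed by A. The part of these 3' ends in the results above was not tested beyond the fits on 5' ends alone. In the authors' deposited table, some scores are marked as barcode corrected, and the KO mean differed from the mean of the 3 brains at SSU-G644 in the adult and at SSU-U116 and SSU-C174 at E16.5.

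The comparison of KO with WT asked whether loss of these snoRNA arrays changes the sites, and the means of the authors' deposited table differed by little at most of them. The median size of the difference over the 22 sites was 0.0176 in adult brains and 0.00894 at E16.5, beside 0.0107 and 0.0134 over all listed sites. In the adult it was over 0.05 at 4 of the 22 sites, where 12% of all listed sites were. At SSU-A576 the KO mean was 0.510 and the WT mean 0.722, a difference of -0.212 that ranked 1 among all listed sites. SSU-C462 had 0.963 in KO and 0.774 in WT (authors' SD, 0.144), and SSU-G436 had 0.874 in KO and 0.762 in WT (authors' SD, 0.0738). SSU-A468 had 0.90 in KO and 0.966 in WT. Of these differences, only that of SSU-A576 exceeded 2 times the larger of the authors' SDs. Over all listed sites, 5 differed by over 0.05 and by over 2 times the larger SD. With the mean of the 3 brains in place of the corrected KO mean, SSU-G644 also differed by over 0.05, and its difference turned to -0.0816, against 0.0339 with the corrected mean of 0.975 (WT, 0.942). All 3 adult KO brains lay below the WT mean at SSU-A576, and all 3 lay above it at SSU-G436 and SSU-C462. KO was not tested against WT here.

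At E16.5 the KO mean differed from the WT mean by over 0.05 at 2 of the 22 sites, where 14.8% of all listed sites did. SSU-U172 had 0.791 in KO and 0.861 in WT, and SSU-G644 had 0.858 in KO and 0.937 in WT. All 3 E16.5 KO brains lay below the WT mean at both sites, and neither difference was over 2 times the larger of the authors' SDs. Over all listed sites, 2 differed by over 0.05 and by over 2 times the larger SD. At the 4 sites named for the adult the E16.5 differences were 0.00859 at SSU-A576, 0.0178 at SSU-G436, -0.0454 at SSU-C462 and -0.0114 at SSU-A468, and no test compared the ages. With the mean of the 3 brains in place of the corrected KO mean, SSU-U116 and SSU-C174 also differed by over 0.05, which makes 4 sites. That count was 4 without brain 1, 4 without brain 2 and 5 without brain 3 of the E16.5 KO brains. Across the 22 sites, all 6 KO brains lay above the WT mean of their age at SSU-U354 and SSU-A590, and all 6 lay below it at SSU-A166 and SSU-U172. Of all listed sites, 3.7% had all 6 above and 7.41% all 6 below. At SSU-A166 these differences were small, -0.00992 in the adult and -0.00929 at E16.5.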

How the data were processed

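RiboMeth-seq was performed on whole-brain RNA of 6 mice, 3 per group, by alkaline degradation, selection of 20 to 40 nt fragments and Ion Proton sequencing. Curated mouse rRNA served the authors as the mapping reference (cutadapt 2.0 and Bowtie2 2.3.4.1, per the submitters' processing notes). The deposited position tables hold raw counts of 5' and 3' read ends per rRNA position in each brain, and a methylated fraction, from 0 to 1, derived from them by the authors. A further deposited table gives the authors' mean RiboMeth-seq score and SD at each listed site for KO and WT brains of both ages, with some scores marked as barcode corrected. Of the position tables, 1 unheaded column and the authors' means were not used.

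Expected read ends were averaged over 6 neighbours to the left and 6 to the right, with weights falling to 0.5. The recomputed fraction equalled the deposited one within 1e-05 at 6722 scored positions in 5 brains and at 6721 in E16.5 brain 3. SDs of the brains, given after ±, divide by the number of brains less 1. Those of the authors for KO divide by the full number and are thus smaller, as checked at all members whose KO mean was not corrected (21 sites for adults, 20 for embryos). The divisor of their WT SDs was not checked. Groups follow the labels, which give E16.5 for the embryos, where a legend of the study says adult. No replicates shared their counts.

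The quasi-likelihood test of edgeR 4.0.16 (R 4.3.3) was fitted to the 5' plus 3' read ends of the 108 sites, with an offset of log expected read ends, Benjamini-Hochberg adjustment over the 108 sites and a threshold of 0.05. The fit was also run on simulated counts with known changes, as many up as down, drawn without links between libraries. That run does not cover data in which most changes go the same way, as here. The SE given after a log2 change is its size over the square root of the edgeR F statistic, not a separate estimate. Alternatives used DESeq2 1.42.0, limma 3.58.1 and other ways of scoring. Guide pairings were searched in 1507 GENCODE and 1330 RefSeq snoRNA genes, with at most 1 mismatch in the box. Every site is named with its means, and sites that passed the test, had a KO mean under 0.75, differed from WT by over 0.05 or moved by over 0.05 without listed neighbours are given per brain (15 sites). The members, lists and rules were chosen with earlier results of these data known.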

Additional observations from a re-analysis of the deposited data

How the results depend on the processing

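The number of 5' domain sites that passed was 11, and it was 2 on 3' ends alone, 2 with TMM factors, 7 of the 14 sites where every brain had 1000 or more expected read ends, and 2 to 10 in the fits without 1 brain. Of all listed sites 29 passed, and 21 of the 81 where every brain had 1000 or more expected read ends. The count was 63 on 5' ends alone, 7 on 3' ends alone, 47 with DESeq2, 11 with TMM factors and 10 to 30 without 1 brain. The cause of these changes was not tested, except that fewer sites or brains entered some fits. With the replicate number as a block 10 of the 22 sites passed, 9 of them among the 11. The labels do not say that the numbers pair the brains. Deviations of brains with the same number correlated at 0.68, 0.45 and -0.20 (r over all listed sites). Those of adult brain 3 and E16.5 brain 2 correlated at 0.67. Whether libraries are linked across the groups was not tested. The count of sites at 0.75 or more was 20 at E16.5, and 13 with a threshold of 0.90 (95 and 66 over all listed sites). It was 21 with listed neighbours left out, with the median of the 12 neighbours, and without E16.5 brain 2. KO minus WT exceeded 0.05 at 4 adult sites, and at 5 with the mean of the 3 brains. Where it also had to exceed 2 times the larger of the authors' SDs, 1 adult site was left, beside 5 of all listed sites. At E16.5 the 2 sites became 4 with the mean of the 3 brains, 4 to 5 without 1 brain, and 0 with a limit of 0.1 or with the SD rule. The SD rule left 2 of all listed sites at E16.5.

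Of 344 refits of single sites, 260 kept direction and side of the threshold, 54 lost a call, 13 gained one and 17 changed sign. SSU-A99 was the only called site to change sign, at 0.25 on 5' ends alone. With TMM factors the log2 change turned to 0.086 at SSU-U116, 0.51 at SSU-A166, 0.47 at SSU-C517, 0.15 at SSU-G601 and 0.69 at SSU-G644. On 3' ends alone it turned to 0.20 at SSU-A166 and 0.35 at SSU-G644, and on 5' ends alone to 0.15 at SSU-C517. With the median of the 12 neighbours it turned to -0.16 at SSU-A468 and 0.00028 at SSU-G644. Without 1 brain it ran from -1.63 to 0.28 at SSU-U116, from -0.28 to 1.05 at SSU-A468, from -1.14 to 0.51 at SSU-A484 and from -2.67 to 0.52 at SSU-G644. Each group had 3 brains, and expected read ends at a site were as few as 391 in a brain.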
